A study of Mus musculus with 12 samples.

Results

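Integrins and the proteins that tie them to the actin cytoskeleton were followed in 2 mouse testis cell lines after shRNA against M5, the muscarinic acetylcholine receptor encoded by Chrm5. The members were every gene of the expression table whose symbol is that of an integrin alpha subunit (18 genes) or an integrin beta subunit (8 genes), and 16 focal adhesion genes chosen by name. These were 42 of the 17995 genes in the table, and the rule itself used no measured value. mRNA was sequenced from 12 libraries, in 4 groups of 3: C18-4 cells with shNC, the control shRNA (labelled C3NC), C18-4 cells with shM5 (labelled CM5), TM4 cells with shNC (labelled TM3NC) and TM4 cells with shM5 (labelled TMM5). C18-4 is used as a spermatogonial stem cell line and TM4 as a Sertoli cell line, and the labels give the strain of both as IRC. In the study's methods 3 shRNAs per target were mixed and stably transfected cells were grown, and whether the libraries of a group came from separate cultures was not given, so p-values measure the spread between these libraries only. The comparison of shM5 with shNC asks which genes change when M5 is lowered, in a study of cell junctions during spermatogenesis.

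An integrin is a pair of 1 alpha and 1 beta subunit that spans the cell membrane and binds the extracellular matrix or a receptor on another cell. Talins and kindlins bind the tail of the beta subunit and switch the receptor on, the complex of integrin-linked kinase, PINCH and parvin joins the tail to actin, and vinculin, paxillin, zyxin, tensins and focal adhesion kinase gather at the same site to bear force and signal. In the seminiferous epithelium, integrins hold cells to the basement membrane, and integrin subunits are also found at the actin-rich junctions between Sertoli cells and germ cells.

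Values are RPKM, a read count scaled by gene length and library size, and levels can therefore be compared between genes. Read totals were not analysed here, since RPKM does not hold them. The steps between low values of 15 to 21 genes per library gave a relative value of 1 read between 0.942 and 1.05. Only genes whose steps lay within 10% of their median were kept, so a larger difference in depth could not have been seen. Chrm5 was listed at 0 in 10 libraries and at 0.01 RPKM in TM4 shNC replicate 1 and C18-4 shNC replicate 2. The lowering of the target mRNA could therefore not be checked here. The study reported less M5 protein with shM5 in both lines, by immunofluorescence. The line labels were only partly borne out by marker genes. In C18-4 cells, 4 of the 15 germ cell markers found reached a mean of 0.5 RPKM (Uchl1, Id4, Epcam and Etv5), while Zbtb16, Ret, Ddx4 and Dazl stayed at or below 0.05 RPKM, and the Sertoli marker Wt1 was at 53.9 to 72.3 RPKM. Of these, Etv5 was higher in TM4 cells, at 5.98 to 7.49 RPKM against 1.63 to 2.29 RPKM in C18-4 cells. In TM4 cells Wt1 was at 0.06 to 0.15 RPKM, Sox9 at 1.11 to 1.74 RPKM and Amh at 0.08 to 0.19 RPKM. The fibroblast and myoid markers summed to 554.9 to 801 RPKM in C18-4 cells and 1444 to 2123 RPKM in TM4 cells. Of the leukocyte markers, Ptprc was at most 0.04 RPKM in any library. Cd14 was at most 0.76 RPKM in C18-4 cells but at 15.1 to 18.79 RPKM in TM4 cells. Cd68 was at 1.83 to 4.24 RPKM in C18-4 cells and 1.06 to 1.56 RPKM in TM4 cells.

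Each line held libraries that stood apart. In TM4 cells, shNC replicate 3 differed from the other shNC libraries by a root mean square log2 difference over all tested genes of 0.640 and 0.642, and from the shM5 libraries by 0.202 to 0.257. The 10 genes of an ATF4 stress list summed to 1972 and 1968 RPKM in TM4 shNC replicates 1 and 2, to 673 RPKM in shNC replicate 3 and to 606.4 to 645.6 RPKM in the shM5 libraries. In C18-4 cells, the same sum was 1398 RPKM in shNC replicate 3 and 1300 RPKM in shM5 replicate 3, against 740.0 to 778.0 RPKM in the other libraries. The part of this stress list in the differences between groups was not tested. In C18-4 cells, the libraries numbered 3 deviated together. Deviations of those numbered 1 and 2 correlated at 0.439 and 0.409 within numbers and at 0.341 and 0.345 across them, so their pairing was not shown. A second fit, chosen from these same data, treated equal numbers as a block, and its values stand beside results that they change. In TM4 cells, each count is also given after leaving out shNC replicate 3.

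Most integrin alpha subunits were at or near 0 in both lines, and a few carried nearly all of the signal. Testing required an average of 0.5 RPKM or more across a line's 6 libraries, and this was reached by 7 of 18 alpha subunits in C18-4 cells and by 5 in TM4 cells. Itgad, the alpha D subunit of leukocytes, was listed at 0 in all 12 libraries, and Itga2, Itga4, Itga8, Itga9, Itga10, Itga11, Itgae, Itgal, Itgam and Itgax stayed below 0.5 RPKM in every library. Of the beta subunits, 6 of 8 were tested in the C18-4 line and 5 in the TM4 line, and Itgb4 and Itgb6, the partners of alpha 6 and alpha V in epithelia, were below this limit in both lines. Of the focal adhesion genes, 13 of 16 were tested in the C18-4 line and 14 in the TM4 line. Fermt1, the kindlin of epithelia, and Lims2, the second PINCH gene, were tested in neither line, and Parvb, a parvin, was tested in TM4 cells only. The other focal adhesion genes were abundant, 12 of 16 averaging 10 RPKM or more in each line. Zyx, the stress-fibre protein zyxin, was the highest of them, at 195.9 to 221.4 RPKM in C18-4 cells and 235.7 to 320.8 RPKM in TM4 cells.

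Itgb1, the beta subunit shared by most matrix receptors, was the most abundant integrin gene in every library. It made up 91.1 to 93.5% of the summed beta subunit RPKM in C18-4 cells and 86.1 to 89.9% in TM4 cells. Itgb5, a partner of alpha V in vitronectin receptors, came next, at a mean of 17.5 RPKM in C18-4 cells and 45.7 RPKM in TM4 cells. The alpha subunits were more evenly spread. In C18-4 cells Itga3, a laminin receptor subunit, made up 42.4 to 45.6% of the summed alpha subunit RPKM and Itgav, the subunit of vitronectin receptors, 27.4 to 31.0%. In TM4 cells Itga5, the subunit of the fibronectin receptor, made up 43.7 to 46.3%, and Itga3 only 11.4 to 20.1%. The summed alpha subunits were at 168.1 to 195.7 RPKM in C18-4 cells and 121.4 to 145.7 RPKM in TM4 cells, whereas the summed beta subunits were at 292.9 to 349.1 RPKM and 393.3 to 440.6 RPKM, so the ranges of the lines did not overlap for either sum.

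**Figure D1:**
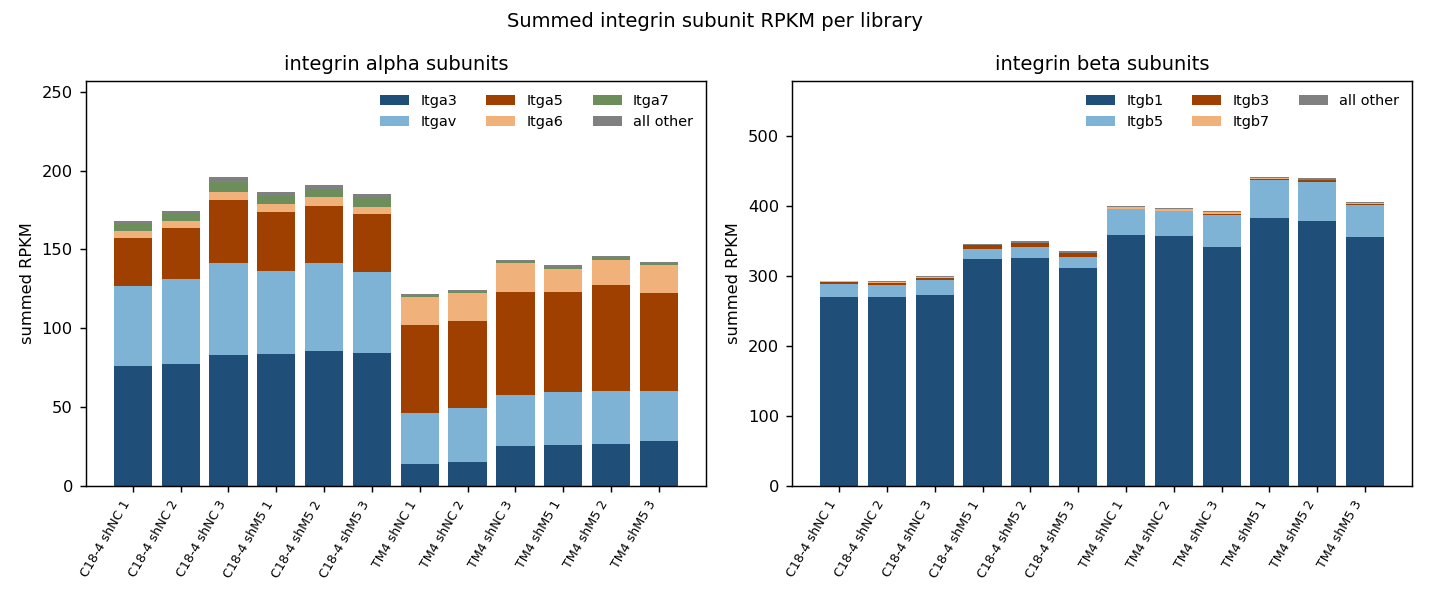
Stacked bars of summed RPKM of the integrin alpha subunits (left) and beta subunits (right) in each of the 12 libraries, with the most abundant subunits in colour and all others in grey. Itgb1 fills most of every beta bar, and Itga3 fills 42.4 to 45.6% of the alpha bars in C18-4 cells against 11.4 to 20.1% in TM4 cells.

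Several members differed in level between the lines, while Itgb1 and Zyx were the highest integrin and focal adhesion genes in both. In 1 limma fit of all 12 libraries, 12 of 27 members tested had an adjusted p below 0.05 (Benjamini-Hochberg) and a log2 difference of at least 1 between C18-4 and TM4, 7 higher in C18-4 and 5 higher in TM4. Over all genes tested this held for 27.1%, with 17.2% higher in C18-4 and 9.87% lower. The median log2 difference was 0.36 over the members and 0.14 over all genes, and another scaling of the libraries moved the latter to 0.01, a shift of 0.12. The direction of every member was the same under that scaling except for Itgb8, which had a difference of 0.11 and then of -0.0016. The differences below are from the scale as deposited and can be read against that shift. The lines differ in origin, culture medium and every other feature of a cell line, and with 1 line of each kind these cannot be told apart. In such bulk samples, fewer cells of a type and less RNA per cell also cannot be told apart.

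Among the laminin receptor subunits, the lines went opposite ways. Itga3 was at 75.98, 77.31 and 83.02 RPKM in C18-4 shNC and 83.89, 85.69 and 84.55 RPKM in C18-4 shM5. In TM4 cells it was at 13.88, 14.84 and 25.46 RPKM with shNC and 26.23, 26.79 and 28.62 RPKM with shM5. All 6 C18-4 libraries lay above all 6 TM4 libraries, and the log2 difference was 1.90 ± 0.12 (SE, adjusted p = 5.4e-08, limma). Itga6, which pairs with beta 1 as a laminin receptor and is widely used as a surface marker of spermatogonial stem cells, was at 4.95, 4.87 and 5.21 RPKM in C18-4 shNC, 5.04, 5.48 and 4.86 RPKM in C18-4 shM5, 17.45, 17.68 and 18.69 RPKM in TM4 shNC, and 14.75, 15.76 and 18.23 RPKM in TM4 shM5. It was higher in every TM4 library than in any C18-4 library, by a log2 difference of -1.73 ± 0.07 (SE, adjusted p = 5.4e-10, limma). This is a difference between the lines as labelled, whose germ cell and Sertoli markers bore out those labels only in part. Itga7, a laminin receptor subunit of muscle, was at 4.09, 4.24 and 6.02 RPKM in C18-4 shNC, 5.33, 5.42 and 5.97 RPKM in C18-4 shM5, and between 0.82 and 1.14 RPKM in the TM4 libraries (log2 difference 2.24 ± 0.11, SE).

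The collagen receptor subunit Itga1 and the platelet subunit Itga2b were low in both lines, at means of 0.975 and 0.950 RPKM in C18-4 cells and 0.290 and 0.357 RPKM in TM4 cells. Itga1 was at 0.78, 0.69, 1.10, 0.98, 1.23 and 1.07 RPKM in the C18-4 libraries, shNC first, and at 0.17, 0.22, 0.27, 0.39, 0.44 and 0.25 RPKM in the TM4 libraries (log2 difference 1.48 ± 0.16, SE). The ranges did not overlap, but at such levels the pseudocount of 0.1 added before the log holds the difference down. Itga5 and Itgav differed by less than 1 on the log2 scale. Itga5 was at 30.00, 31.89 and 40.17 RPKM in C18-4 shNC, 37.17, 36.38 and 36.91 RPKM in C18-4 shM5, 55.61, 55.23 and 65.24 RPKM in TM4 shNC and 63.41, 67.43 and 62.11 RPKM in TM4 shM5. Itgav went the other way, at 50.85 to 58.26 RPKM in C18-4 cells and 31.33 to 34.39 RPKM in TM4 cells (log2 difference 0.70 ± 0.05, SE).

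Of the beta subunits, Itgb3 was higher in C18-4 cells (log2 difference 1.57 ± 0.22, SE), and Itgb5 and Itgb7 were higher in TM4 cells, by log2 differences of -1.37 ± 0.08 and -1.24 ± 0.17 (SE). Itgb7 encodes a leukocyte subunit, whose usual partners Itga4 and Itgae were at most 0.02 and 0.21 RPKM here. Itgb8, which pairs with alpha V to release active TGF-beta, was at 0.54, 0.81 and 0.82 RPKM in C18-4 shNC, 0.72, 1.06 and 0.64 RPKM in C18-4 shM5, 0.34, 0.81 and 0.73 RPKM in TM4 shNC and 0.62, 0.99 and 0.83 RPKM in TM4 shM5. Its ranges overlapped in all 4 groups.

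Among the members, the difference of greatest size was in the parvins, the actin-binding arm of the integrin-linked kinase complex. Parvb was listed at 0 in 4 of the 6 C18-4 libraries, including all shNC libraries, and at 0.02 and 0.05 RPKM in shM5 replicates 1 and 3. In TM4 cells it was at 19.15, 19.89 and 28.81 RPKM with shNC and 28.12, 28.06 and 27.75 RPKM with shM5, and made up 33.0 to 36.6% of the summed parvin RPKM. No fold is given against libraries listed at 0, since the fitted log2 difference was -7.83 with a pseudocount of 0.1 and -4.68 with a pseudocount of 1. Parva, the other parvin, was at 61.51 to 69.71 RPKM in C18-4 cells and at 34.65 to 56.23 RPKM in TM4 cells, and the third parvin, Parvg, was at means of 0.01 and 1.17 RPKM. The 250 bases before the start of Parvb are shown because of the members tested this gene had the greatest fitted difference between the lines, in the direction of transcription, from RefSeq on GRCm38.p6 (chr15:84231793-84232042, plus strand), with the GC box GGGCGG in capitals.
Parvb: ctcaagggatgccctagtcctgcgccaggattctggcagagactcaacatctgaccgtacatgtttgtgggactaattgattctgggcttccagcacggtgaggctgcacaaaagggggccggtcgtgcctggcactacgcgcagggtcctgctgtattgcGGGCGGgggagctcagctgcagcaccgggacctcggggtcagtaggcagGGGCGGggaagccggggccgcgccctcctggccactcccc
The GC box was found on either strand of the corresponding windows of 16 of the 29 members with a promoter in the table, and of 35.4% of all 27025 genes there. The genome build behind the deposited values was not given in the sources used here, and these positions are those of the reference only.

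Tns1, a tensin that links integrin tails to actin, was at 23.01, 24.93 and 23.78 RPKM in C18-4 shNC, 21.91, 22.15 and 21.84 RPKM in C18-4 shM5, 2.53, 2.31 and 5.87 RPKM in TM4 shNC and 6.05, 6.29 and 5.56 RPKM in TM4 shM5. The C18-4 libraries all lay above the TM4 libraries (log2 difference 2.35 ± 0.19, SE). Tln2, the minor talin, was at 1.51, 1.74 and 2.11 RPKM in C18-4 shNC, 1.30, 1.21 and 1.66 RPKM in C18-4 shM5, 4.66, 4.57 and 5.32 RPKM in TM4 shNC and 5.32, 5.95 and 5.64 RPKM in TM4 shM5, thus higher in every TM4 library (log2 difference -1.68 ± 0.11, SE). Lims1, the main PINCH gene, was higher in C18-4 cells (log2 difference 1.35 ± 0.11, SE), whereas its partner Ilk had a log2 difference of -0.87 ± 0.09 (SE). Ptk2, which encodes focal adhesion kinase, and Pxn, which encodes the scaffold paxillin, were nearly level, at 37.62 to 40.57 and 40.51 to 47.32 RPKM in C18-4 cells and 41.03 to 43.54 and 45.27 to 49.08 RPKM in TM4 cells. The 95% interval of the log2 difference ran from -0.18 to 0.01 for Ptk2 and from -0.25 to -0.01 for Pxn. Under the other scaling of the libraries it ran from -0.31 to -0.11 for Ptk2 and from -0.36 to -0.15 for Pxn. Whether the genes are level or slightly lower in C18-4 cells thus depends on the scaling for Ptk2.

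**Figure D2:**
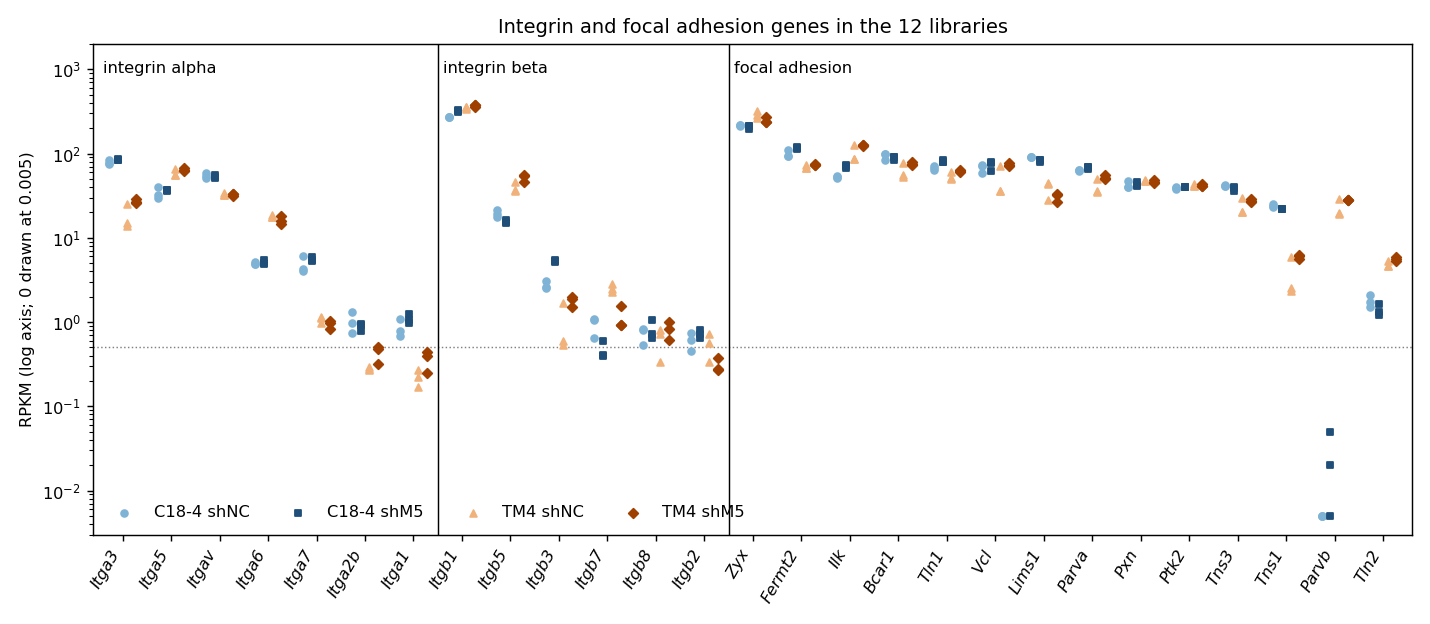
RPKM on a log axis of the 27 members that averaged 0.5 RPKM or more in either line, 1 point per library and 1 colour and shape per group, with alpha subunits, beta subunits and focal adhesion genes in separate blocks and a dotted line at 0.5 RPKM. Parvb lies at or below 0.05 RPKM in C18-4 cells and at 19.15 to 28.81 RPKM in TM4 cells, while the points of Ptk2 and Pxn of both lines lie within 37.62 to 49.08 RPKM.

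In C18-4 cells, shM5 went with more Itgb3, the beta subunit of the alpha V beta 3 receptor for vitronectin and osteopontin. Itgb3 was at 2.53, 2.61 and 3.09 RPKM with shNC and at 5.35, 5.21 and 5.43 RPKM with shM5. The groups did not overlap, and the gap between them was wider than the spread within either. The log2 difference was 0.94 ± 0.12 (SE, adjusted p = 0.0410, limma), and with the replicate block the adjusted p was 0.00250. It was the only member of 26 tested that passed an adjusted p of 0.05, while 0.586% of all 11611 genes did. The call was lost when any of shNC replicates 1 and 2 or the shM5 libraries was left out and kept without shNC replicate 3, and over 14 settings the difference stayed between 0.76 and 1.02 with an adjusted p of 0.000192 to 0.9998.

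Other members differed in both directions. Without the block, 8 of 26 members had an unadjusted p below 0.05, against 12.3% of all genes tested. The groups did not overlap for 14 of 26 members, 8 higher with shM5 (Itga3, Itgb1, Itgb3, Fermt2, Ilk, Parva, Ptk2 and Tln1) and 6 lower (Itgb5, Itgb7, Lims1, Tns1, Tns3 and Zyx), while this held for 18.9% of all genes tested. With the replicate block, 6 members passed an adjusted p of 0.05, 5 higher and 1 lower, against 11.9% of all genes, 5.21% higher and 6.73% lower. Without replicate 3 of both groups, the libraries high in the stress list, 12 members passed, 9 higher and 3 lower, but the share of all genes that passed also grew, to 26.2%, 12.8% higher and 13.4% lower. The median log2 difference was 0.08 over the members tested and -0.0024 over all genes. The summed levels of marker lists of other cell types differed between the same groups. The 12 fibroblast and myoid markers, of which 9 were tested and 4 passed with the block, all higher, summed to 554.9 to 609.6 RPKM with shNC and 682.7 to 801 RPKM with shM5. The germ cell list summed to 82.87 to 125.3 RPKM and 128.8 to 147.6 RPKM, and the Sertoli list to 76.02 to 77.25 RPKM and 81.85 to 88.8 RPKM. Most of each sum came from 1 gene. Uchl1 was at 76.8 to 118.3 and 122.1 to 140.0 RPKM, and Wt1 at 53.9 to 62.1 and 63.3 to 72.3 RPKM. Of the markers tested, 3 of 4 germ cell and 3 of 6 Sertoli markers had a positive difference, the others a negative one. None of these passed without the block. The part of these lists in the members' differences was not tested.

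Beside Itgb3, the members that rose with the block were Ilk, Itgb1, Tln1 and Fermt2. The SEs below are from the fit without the block unless stated. Ilk, integrin-linked kinase, was at 51.83, 52.31 and 54.68 RPKM with shNC and at 72.27, 70.85 and 67.85 RPKM with shM5, a log2 difference of 0.41 ± 0.06 (SE, adjusted p = 0.0537 without and 0.00395 with the block, limma). Itgb1 was at 269.4, 269.6 and 273.0 RPKM with shNC and at 323.6, 326.1 and 311.1 RPKM with shM5, a log2 difference of 0.24 ± 0.06 (SE, adjusted p = 0.159 without and 0.0119 with the block, limma). The groups did not overlap for either gene, and the 3 shNC libraries lay close together in both.

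Tln1, the main talin, was at 63.52, 67.88 and 71.97 RPKM with shNC and at 78.58, 84.81 and 78.97 RPKM with shM5 (log2 difference 0.25 ± 0.07, SE, adjusted p = 0.232 without and 0.0238 with the block, limma). Fermt2, the kindlin of most non-blood cells, was at 94.78, 93.03 and 110.2 RPKM with shNC and at 114.7, 115.1 and 119.6 RPKM with shM5 (log2 difference 0.23 ± 0.08, SE, adjusted p = 0.309 without and 0.0273 with the block, limma). shNC replicate 3 was the highest control library for both activators but stayed below every shM5 library. Parva and Ptk2 were also higher in every shM5 library, with log2 differences of 0.12 and 0.06 that did not pass with the block.

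Itgb5 was the member that fell with the block. It was at 19.17, 17.79 and 21.14 RPKM with shNC and at 15.12, 15.21 and 16.39 RPKM with shM5, a log2 difference of -0.31 ± 0.09 (SE, adjusted p = 0.235 without and 0.0187 with the block, limma). Itgb3 and Itgb5 can both pair with Itgav, which had a log2 difference of -0.04 (95% interval -0.22 to 0.14) and groups that overlapped. Itgb7 was at 1.09, 1.07 and 0.65 RPKM with shNC and 0.40, 0.59 and 0.41 RPKM with shM5, close to the limit for testing, and did not pass with the block (log2 difference -0.86 ± 0.23, SE with the block, adjusted p = 0.0509, limma). Lims1 was at 90.75 to 92.17 RPKM with shNC and 80.36 to 83.90 RPKM with shM5, lower in every shM5 library, and did not pass either (log2 difference -0.15 ± 0.06, SE). None of the 7 alpha subunits tested passed with or without the block. Summed over the subunits, the beta RPKM was at 292.9 to 299.7 with shNC and 335.2 to 349.1 with shM5, while the alpha RPKM was at 168.1 to 195.7 and 185.4 to 190.8.

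In the TM4 cells, no member passed an adjusted p of 0.05 with all 6 libraries, of 24 tested, and neither did any other gene (0 of 11016, 0%, limma). At an unadjusted p below 0.05 there were 8 members, 6 higher and 2 lower, against 26% of all genes. The groups did not overlap for 4 members, Itga3, Vcl and Parva higher and Itgb7 lower with shM5, against 26.8% of all genes. The control libraries were themselves far apart. Without shNC replicate 3, 17 members passed, 14 higher and 3 lower, but so did 67.4% of all genes tested, 36.5% higher and 30.9% lower. Leaving out the control nearest to shM5 by itself favours larger differences and smaller SEs. It leaves 2 control libraries, those with the high stress list sums. The fibroblast and myoid list summed to 1458 and 1444 RPKM in these, to 1869 RPKM in shNC replicate 3 and to 1705 to 2123 RPKM with shM5, with 7 of 9 tested markers passing without shNC replicate 3, all higher. The Sertoli list summed to 28.77, 27.01 and 17.0 RPKM with shNC and 14.54 to 15.8 RPKM with shM5. Their part in the members' differences was not tested.

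Vcl, vinculin, which binds talin and actin under force, was at 36.09, 35.99 and 70.69 RPKM with shNC and at 72.13, 73.73 and 76.66 RPKM with shM5. shNC replicate 3 lay next to the shM5 libraries, at about the level seen in C18-4 cells, where Vcl was at 59.20 to 79.41 RPKM. The log2 difference was 0.72 ± 0.26 (SE, adjusted p = 0.192, limma) with all libraries. Without shNC replicate 3, which left 2 nearly equal control libraries, it was 1.04 ± 0.04 (SE). Tns1 and Itga3, with the values given above, had the same pattern, with log2 differences of 0.85 ± 0.34 and 0.64 ± 0.23 (SE) and of 1.27 and 0.92 without that library. Itgb3 was at 0.54, 0.60 and 1.68 RPKM with shNC and 1.90, 1.96 and 1.50 RPKM with shM5, where shNC replicate 3 lay inside the shM5 range (log2 difference 1.02 ± 0.41, SE, and 1.49 without it).

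Ilk was at 85.61, 86.51 and 128.0 RPKM with shNC and 126.5, 126.8 and 124.2 RPKM with shM5. Parva was at 35.86, 34.65 and 49.85 RPKM with shNC and 50.86, 50.44 and 56.23 RPKM with shM5. The log2 differences of these components of 1 complex were 0.36 ± 0.16 and 0.41 ± 0.15 (SE), and 0.55 and 0.57 without shNC replicate 3. Lims1, the third component, went the other way, at 43.68, 44.24 and 27.84 RPKM with shNC and 33.49, 31.86 and 26.50 RPKM with shM5 (log2 difference -0.31 ± 0.20, SE, and -0.53 without that library). Again shNC replicate 3 lay with shM5, and for Ilk it was the highest of the 6 libraries. The members that also passed without that library were Bcar1 (the adapter p130Cas), Parvb, Tns3, Tln1, Tln2, Itga5, Itgb5 and Fermt2, all higher, and Zyx, which was lower, with log2 differences between 0.12 and 0.52 for the former and of -0.31 for Zyx.

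Itgb7 was lower in every shM5 library than in any shNC library. It was at 2.47, 2.30 and 2.82 RPKM with shNC and 0.92, 0.92 and 1.57 RPKM with shM5, and here shNC replicate 3 was the highest control library. The log2 difference was -1.12 ± 0.23 (SE, adjusted p = 0.192, limma) with all libraries, an unadjusted p of 0.00243, and -1.05 ± 0.24 (SE, adjusted p = 0.00524, limma) without it. Itgb5 was at 36.48, 35.61 and 45.83 RPKM with shNC and 54.08, 56.36 and 45.77 RPKM with shM5, so shNC replicate 3 and shM5 replicate 3 were level (log2 difference 0.41 ± 0.13, SE). Itgb1 was at 358.8, 356.9 and 341.5 RPKM with shNC and 382.4, 378.4 and 355.3 RPKM with shM5, with groups that overlapped and a 95% interval of the log2 difference from -0.07 to 0.22.

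The windows before the start of Vcl and Fermt2 are shown because 1 is among the members with the greatest differences in TM4 cells and the other rose with the block in C18-4 cells, and each holds a CArG box, the sequence bound by serum response factor at many actin cytoskeleton genes. The box is in capitals, at bases -227 to -218 of Vcl (chr14:20929148-20929397, plus strand) and -204 to -195 of Fermt2 (chr14:45530066-45530315, minus strand), counted back from the start, in RefSeq on GRCm38.p6.
Vcl: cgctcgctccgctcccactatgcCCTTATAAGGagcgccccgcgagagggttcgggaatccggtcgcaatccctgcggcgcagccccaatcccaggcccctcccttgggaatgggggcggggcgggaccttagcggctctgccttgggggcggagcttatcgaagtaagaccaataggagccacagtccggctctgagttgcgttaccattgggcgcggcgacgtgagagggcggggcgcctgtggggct
Fermt2: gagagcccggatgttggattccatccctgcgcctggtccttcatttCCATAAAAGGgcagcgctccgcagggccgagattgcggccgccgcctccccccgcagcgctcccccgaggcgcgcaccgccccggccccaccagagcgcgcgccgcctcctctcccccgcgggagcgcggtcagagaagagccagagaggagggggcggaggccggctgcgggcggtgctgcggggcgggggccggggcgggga
A CArG box on either strand was found in 3 of the 29 members with a promoter in the table (Fermt2, Itgb6 and Vcl) and in 1.62% of all genes. The letters GGAATG, a site of TEAD factors, were in 3 members (Itga10, Itgb1 and Vcl) and 14.4% of all genes, and TGANTCA, the AP-1 site, in 2 members (Itgax and Zyx) and 7.82% of all genes. A match describes the letters only, and binding was not measured.

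**Figure D3:**
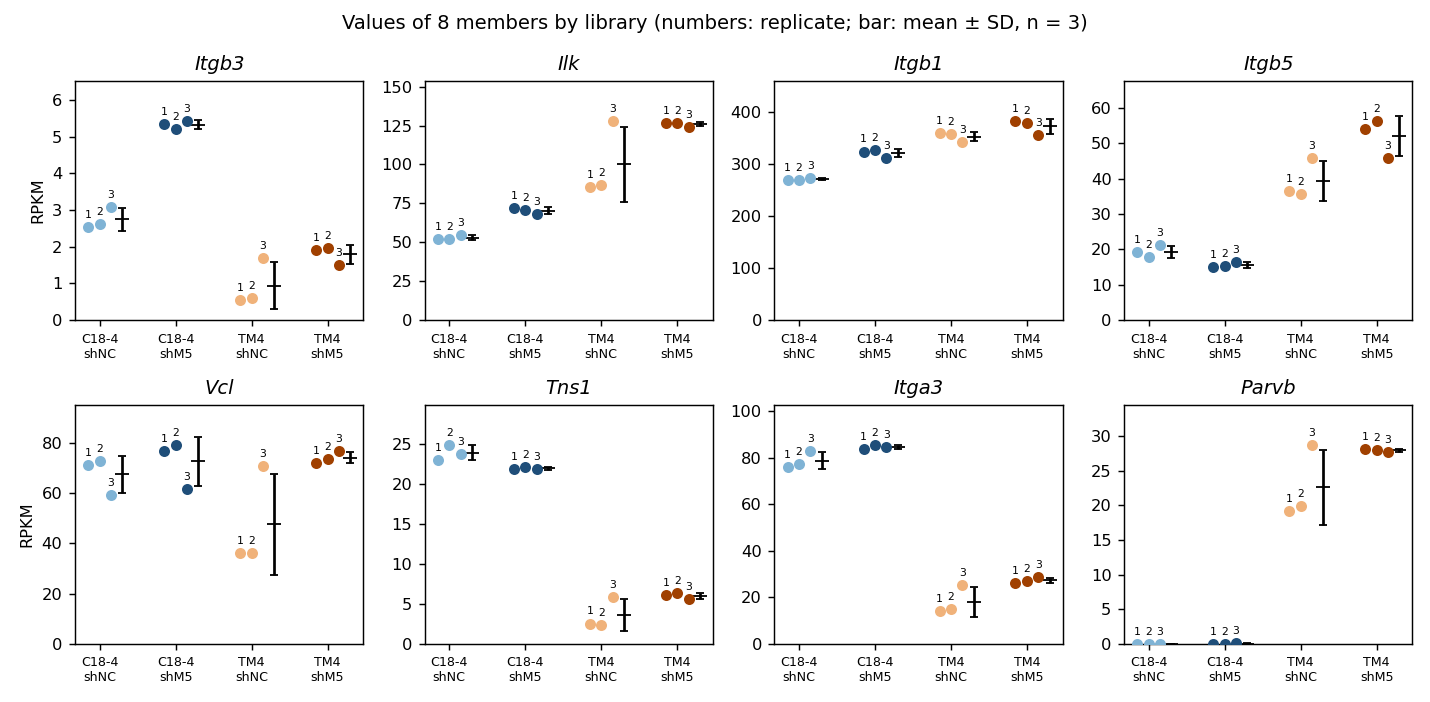
RPKM of 8 members in each library, numbered by replicate, with the mean ± SD of each group (n = 3) as a black bar and axes that start at 0. Itgb3, Ilk and Itgb1 are higher and Itgb5 is lower in every C18-4 shM5 library than in any C18-4 shNC library, while TM4 shNC replicate 3 lies near the shM5 libraries for Vcl, Tns1, Itga3, Ilk and Parvb.

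Whether shM5 had a different effect in the lines was asked by an interaction term in the fit of 12 libraries. No member of 27 had an adjusted p below 0.05 (limma), while 0.102% of all genes did, and 4 members had an unadjusted p below 0.05 (Itgb2, Itgb5, Tns1 and Tln2), against 20.9% of all genes. Itgb5, lower with shM5 in C18-4 cells and higher in TM4 cells, had the smallest p, with a difference of the log2 differences of -0.72 ± 0.16 (SE, adjusted p = 0.130, limma). Without TM4 shNC replicate 3, 11 members passed, as did 38% of all genes. The log2 difference of Itgb3 was 0.94 in C18-4 cells and 1.02 in TM4 cells, but the 95% interval of the gap between them, -1.04 to 0.89, does not show that the effects were alike.

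**Figure D4:**
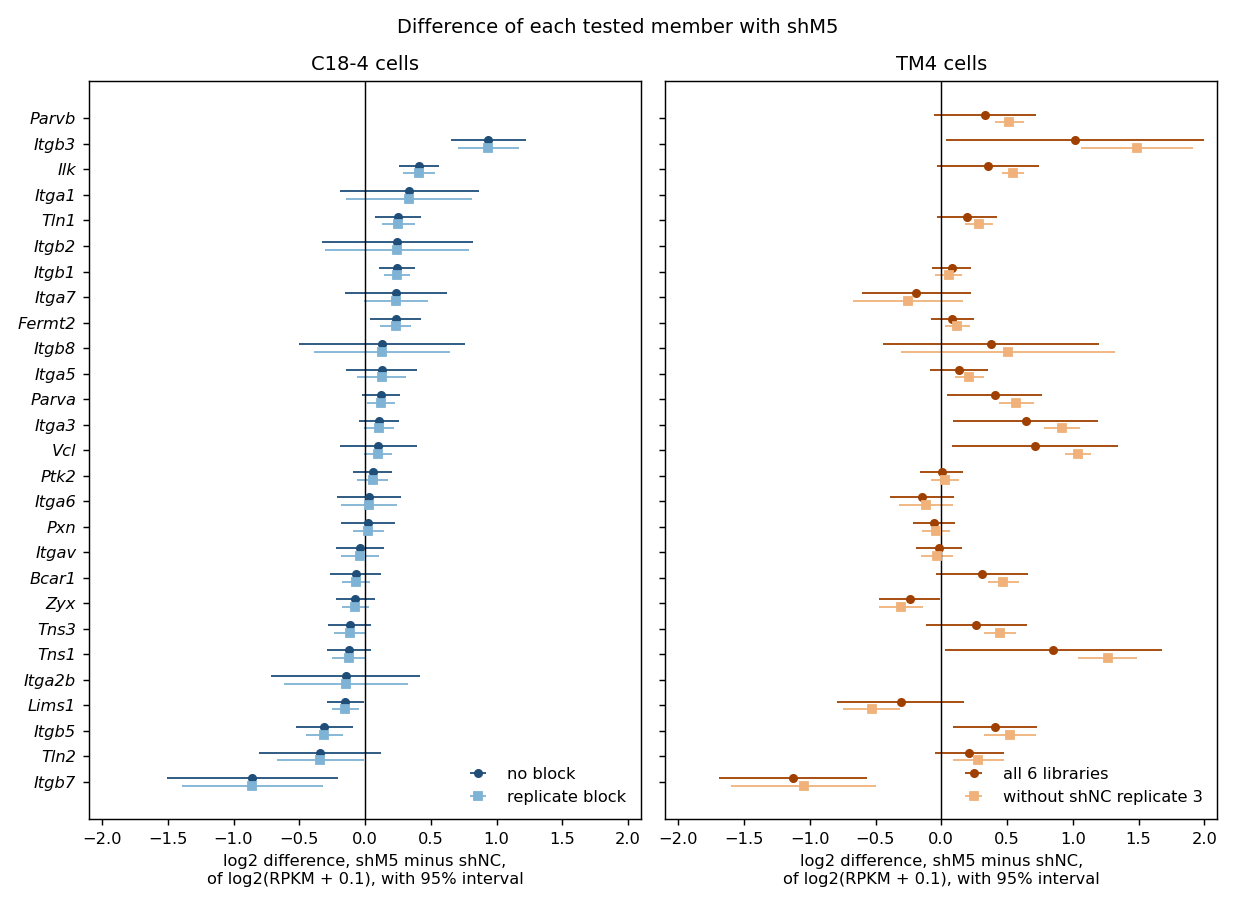
Difference of log2(RPKM + 0.1), shM5 minus shNC, with its 95% interval from limma, for each member tested in C18-4 (left, without and with the replicate block) and in TM4 cells (right, with all 6 libraries and without shNC replicate 3). In C18-4 cells Itgb3 stands at 0.94 and Ilk at 0.41, and in TM4 cells leaving out shNC replicate 3 moves Vcl from 0.72 to 1.04 and narrows its interval.

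Other genes of the pathway were given by a list of 59 adhesion signalling genes, such as kinases, filamins, further tensins and adapters, all found in the table. In C18-4 cells 0 of 52 tested passed without the block (limma), against 0.586% of all genes. At an unadjusted p below 0.05 there were 11, against 12.3% of all genes. With the block 11 passed, 8 higher and 3 lower, against 11.9% of all genes. In TM4 cells 0 of 53 passed with all libraries (limma, 18 at an unadjusted p below 0.05), against 26% of all genes at the latter. Without shNC replicate 3, 41 of 54 passed, 22 higher and 19 lower, near the 67.4% of all genes that did. Between the lines 8 of 54 passed, a smaller share than the 27.1% of all genes. Tns4, Kank1 and Ablim1 were higher in C18-4 cells (log2 differences 3.75, 2.75 and 1.59), and Apbb1ip, the talin recruiter RIAM, Parvg and Pak1 had the greatest fitted differences the other way. Pak1 differed by -2.60 on the log2 scale. Apbb1ip and Parvg were at most 0.05 and 0.02 RPKM in C18-4 cells and listed at 0 in several of these libraries, so their fitted differences depend on the pseudocount and are not given. Apbb1ip was at 49.34 to 62.03 RPKM and Parvg at 0.8 to 1.41 RPKM in TM4 cells.

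The matrix proteins and other ligands that integrins bind were given by a list of 25 genes, of which 23 were found. In C18-4 cells 2 of 18 tested passed without the block, against 0.586% of all genes. Tnc, the matrix protein tenascin C, was at 11.19, 12.90 and 14.69 RPKM with shNC and 24.74, 25.85 and 21.17 RPKM with shM5 (log2 difference 0.89 ± 0.13, SE, adjusted p = 0.0410, limma). Spp1, osteopontin, was at 64.27, 61.19 and 65.42 RPKM with shNC and 37.96, 36.63 and 30.44 RPKM with shM5 (log2 difference -0.87 ± 0.10, SE, adjusted p = 0.0367, limma). Both are ligands of receptors with the beta 3 subunit, and the groups did not overlap for either. With the block 5 of 18 ligands passed, 2 higher and 3 lower, against 11.9% of all genes. In TM4 cells 0 of 15 passed with all libraries (limma, 4 at an unadjusted p below 0.05, against 26% of all genes). Without shNC replicate 3, 7 of 15 passed, 3 higher and 4 lower, a smaller share than the 67.4% of all genes.

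Between the lines, 12 of 17 ligands passed, against 27.1% of all genes. Fn1, fibronectin, the ligand of the receptor with alpha 5, was at 7.55 to 9.70 RPKM in C18-4 cells and 421.3 to 626.5 RPKM in TM4 cells (log2 difference -5.83 ± 0.09, SE), and Spp1 was at 30.44 to 65.42 and 1825 to 2476 RPKM (log2 difference -5.57 ± 0.09, SE). Vcam1, a ligand of alpha 4 integrins, followed (log2 difference -2.94). The ligands with the greatest differences the other way were Npnt, nephronectin (log2 difference 4.53, mean 10.9 RPKM in C18-4 cells and 0.383 RPKM in TM4 cells), Madcam1, which was listed at 0 in TM4 cells, and Jam2. The alpha 8 subunit, the best known receptor of nephronectin, was at most 0.01 RPKM in any library.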

How the data were processed

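Gene expression of C18-4 and TM4 cells with shNC or shM5 was analysed in 12 libraries. Groups came from the sample labels, and the name of a column tied it to 1 library. The authors selected poly(A) mRNA, sequenced it on an Illumina instrument and mapped reads with SOAPaligner (version 2.20), with a genome build not given in the sources used here. The deposited values are RPKM, written with 2 decimals, which the authors computed from gene length and library size. RPKM keeps no read totals, so counting errors are unknown. The authors' own tests (DEGseq) were not used.

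log2(RPKM + 0.1) was fitted with limma (version 3.58.1, R 4.3.3, trended eBayes) for genes that averaged 0.5 RPKM or more in the libraries compared, with Benjamini-Hochberg adjustment of p-values over 11611 genes in C18-4 cells, 11016 in TM4 cells and 11773 in the fit of 12 libraries. The design had provided for counts or RPKM, and the RPKM test was used. A member was called at an adjusted p below 0.05, and between lines also at a log2 difference of at least 1. Log2 differences are on the log2(RPKM + 0.1) scale, which understates those of low genes. Deviations from group means correlated between same-numbered libraries at 0.439, 0.409 and 0.631 in C18-4 cells. The replicate block of the second C18-4 fit rests on this hint from the data, and the main fit assumed no pairing. Libraries numbered 1 and 2 correlated nearly as much across numbers (0.341 and 0.345). In TM4 cells the correlations of same-numbered libraries were at 0.073, 0.049 and 0.127, and no pairing was assumed. In simulated libraries, 87.5% of 200 changed genes were recovered for C18-4 (8 wrong calls), 94.5% for TM4 (6), 93.5% between lines (0) and 79% for the interaction (10). Their spread was that within a shM5 group, drawn independently, so the outlying TM4 shNC replicate 3 was absent. The planted log2 changes were at least 1, and the limit between lines was set below 1. These rates therefore do not hold for the real control libraries or for smaller differences.

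The members, gene lists and tests were chosen with earlier results of these data known. Values in every library were given for members called in C18-4 cells with or without the block, the 8 with the greatest differences among those called in TM4 cells without shNC replicate 3, the 4 most abundant alpha and beta subunits of each line (Itgav by its range) and the 8 with the greatest difference between lines. From the lists, up to 3 genes per direction called in a main fit were named, and other genes were chosen after their values were seen. Promoters were taken from RefSeq (GRCm38.p6) for the 29 of 42 members found there. Alternatives were another pseudocount, no filter, median-of-ratios scaling, the replicate block, left-out libraries and the study's threshold. Marker lists were those of germ, Sertoli, fibroblast and myoid, leukocyte, endothelial and Leydig cells. The last 2 summed to at most 1.24 and 1.58 RPKM in any library, and the leukocyte list to at most 20.2 RPKM, of which Cd14 made up most. Python 3.11.15 was used for tables and figures.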

Additional observations from a re-analysis of the deposited data

How the results depend on the processing

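In C18-4 cells, members called numbered 1 (68 genes in all). They became 0 (4 genes) with no filter on low values, 6 (1386 genes) with the replicate block, 0 (0 genes) without replicate 1 or 2 of both groups, 12 (3029 genes) without replicate 3 of both groups and 0 (0 genes) at the study's threshold. The study's threshold was applied here to the limma fit, and not to the study's own test. Leaving out 1 library gave 0 to 2 members and 0 to 237 genes, the highest without shNC replicate 3. In TM4 cells, 0 members and 0 genes were called, and 19 members and 8016 genes without replicate 3 of both groups. Leaving out 1 library gave 0 to 17 members and 0 to 7433 genes, above 0 without shNC replicate 3 alone. The replicate block left the TM4 counts at 0 and 0. For the interaction, 0 members and 12 genes were called. The gene count was 27 with a pseudocount of 1, 21 with no filter, 5 with median-of-ratios scaling, 2 with the replicate block and 0 at the study's threshold, and 0 to 11 members and 0 to 4477 genes were called with 1 library left out, the highest without TM4 shNC replicate 3. Between the lines, 12 members were called with any 1 library left out and 12 with the replicate block, and 9 with a pseudocount of 1. The differences of the members called in each comparison, with or without the block in C18-4 cells, the 8 greatest without shNC replicate 3 in TM4 cells and the 8 greatest between the lines, kept their direction under every alternative run, over 59 with the same call, 11 with a call gained and 8 with a call lost in C18-4 cells, 88, 16 and 0 in TM4 cells and 143, 0 and 1 between the lines. Members near 0 did change direction, such as Itgb8 between the lines under the other scaling (0.11 and -0.0016) and Itgav in C18-4 cells, which ranged from -0.08 to 0.04. The causes were not tested. Where 2 libraries stand against 3 or 2, the spread rests on few libraries, and with RPKM alone the error of low members such as Itgb7 and Itgb8 cannot be split into counting error and other spread.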
